A study of Mus musculus with 8 samples.

Results

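The E2F family and its DP dimerization partners were examined in mouse tibialis anterior, the muscle along the front of the shin, from male C57BL/6 animals aged 8 weeks. Muscles of both legs had been transfected with a plasmid encoding p21 or with a control plasmid and were taken 7 days later, and 4 muscles of each group were measured on Illumina bead arrays. The members are the genes E2f1 to E2f8, Tfdp1 and Tfdp2, and every probe whose platform annotation names one of them was used. This gave 16 of the 25697 probes, for 9 of the 10 genes, and E2f8 was not analysed here. The labels give neither the promoter of the plasmids nor which muscles came from the same mouse, and the p-values therefore measure the spread between these muscles, which may be technical. Each muscle is a mix of fibers and other cells, so fewer cells of a type and less RNA per cell cannot be told apart in any value below.

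E2F proteins bind DNA and control genes needed for DNA replication and division. E2F1, E2F2 and E2F3 are classed as activators, and E2F4 to E2F8 as repressors. E2F1 to E2F6 bind DNA together with a DP protein, encoded by Tfdp1 or Tfdp2, whereas E2F7 and E2F8 bind without one. The retinoblastoma protein and its relatives, the pocket proteins, hold E2F1 to E2F5 in check until cyclin-dependent kinases phosphorylate them. p21, the product of Cdkn1a, inhibits those kinases. E2F6 does not bind pocket proteins and works with Polycomb group proteins. Muscle fibers are post-mitotic, and retinoblastoma protein and p21 are known for their part in the cell cycle exit of differentiating muscle cells.

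In the p21 muscles the activator transcripts E2f1 and E2f2 were higher and the repressor transcript E2f6 was lower. E2f1 rose 1.34-fold, 2 of the 3 E2f2 probes rose 1.33-fold and 1.38-fold, and all 3 E2f6 probes fell, to levels 1.45-fold to 1.52-fold below the controls. E2f3, E2f4, E2f5, E2f7 and both DP genes did not pass the test. Changes are given as p21 minus control in log2 intensity with the standard error (n = 4 muscles per group). Adjusted p-values come from limma, with the Benjamini-Hochberg method applied to the whole table of 25697 probes, and a probe was called below an adjusted p of 0.05. Of the 16 member probes 6 were called, 3 higher and 3 lower, where 8.03% of all probes were called, 3.68% higher and 4.35% lower. The 6 are among 13 member probes brighter than the median probe, and 15.7% of all probes that bright were called. Among genes represented by their brightest probe, 3 of the 9 members were called against 9.02% of all 16593 genes, 4.24% higher and 4.79% lower. These differences in shares were not tested. At an adjusted p of 0.1, a threshold added after the data were seen, the 6 member probes were again the ones called, against 13.6% of all probes.

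The transfected gene checks the labels. The brightest Cdkn1a probe read 9.83, 9.92, 10.27 and 10.02 in control replicates 1 to 4 and 11.31, 11.72, 11.25 and 11.50 in p21 replicates 1 to 4. For all 3 Cdkn1a probes the groups did not overlap and p21 muscles were higher (adjusted p = 0.000421 to 0.000776 by limma). All arrays had the same spread of values, from 8.13 to 15.27 with a median of 8.39. The floor lies close to that median, which compresses changes of dim probes. Fiber markers such as Acta1 and Ckm had mean levels over 6 genes near the top of the range. These were 14.54 to 14.61 in controls and 14.36 to 14.51 in p21 muscles.

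The start regions of E2f2 and E2f6, the called members with a window at or near the annotated gene start, are shown with that of E2f3, an activator that was not called. They are taken from RefSeq on build GRCm38.p6, run 5′ to 3′ on the strand of the gene and span 250 bases before to 50 bases after a transcription start. Capitals mark matches on either strand to the E2F consensus, searched as TTTGGCGC, TTTCGCGC, TTTCCCGC and TTTGCCGC.
E2f2, chr4:136172024-136172323, plus strand: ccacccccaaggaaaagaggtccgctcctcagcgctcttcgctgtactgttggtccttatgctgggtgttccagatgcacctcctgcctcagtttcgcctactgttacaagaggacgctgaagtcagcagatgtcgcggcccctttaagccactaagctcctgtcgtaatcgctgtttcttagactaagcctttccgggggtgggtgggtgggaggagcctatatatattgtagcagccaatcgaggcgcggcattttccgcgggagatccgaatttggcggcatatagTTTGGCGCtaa
E2f3, chr13:29986014-29986313, minus strand: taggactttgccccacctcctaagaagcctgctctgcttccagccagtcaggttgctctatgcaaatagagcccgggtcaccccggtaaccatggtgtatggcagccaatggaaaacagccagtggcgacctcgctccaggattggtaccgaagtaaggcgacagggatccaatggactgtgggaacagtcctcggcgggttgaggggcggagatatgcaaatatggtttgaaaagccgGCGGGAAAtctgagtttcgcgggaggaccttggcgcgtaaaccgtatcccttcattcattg
E2f6, chr12:16810715-16811014, plus strand: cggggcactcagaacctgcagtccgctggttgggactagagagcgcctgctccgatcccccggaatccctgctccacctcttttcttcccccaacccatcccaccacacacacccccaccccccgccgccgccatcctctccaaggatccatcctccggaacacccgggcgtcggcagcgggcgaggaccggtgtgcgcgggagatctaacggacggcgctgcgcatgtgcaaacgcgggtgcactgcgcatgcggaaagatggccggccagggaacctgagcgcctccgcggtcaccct

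The E2f2 window holds 1 match, which begins 39 bases after the start, and the E2f3 window holds 1, which begins 10 bases before it on the opposite strand. The E2f6 window, whose start lies 56 bases inside the annotated gene, holds no match. The listed E2f1 window belongs to a start 465 bases inside the gene, holds no match either and is not shown. A match is present in 4 of the 8 members that have a window, the others being E2f7 and Tfdp1, and in 2.6% of the 27025 genes with a window. The members without one include E2f8 and Tfdp2, whose windows also belong to starts inside the gene, 476 bases in E2f8 and 62459 and 63002 bases in Tfdp2. These matches describe the sequence alone.

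**Figure D1:**
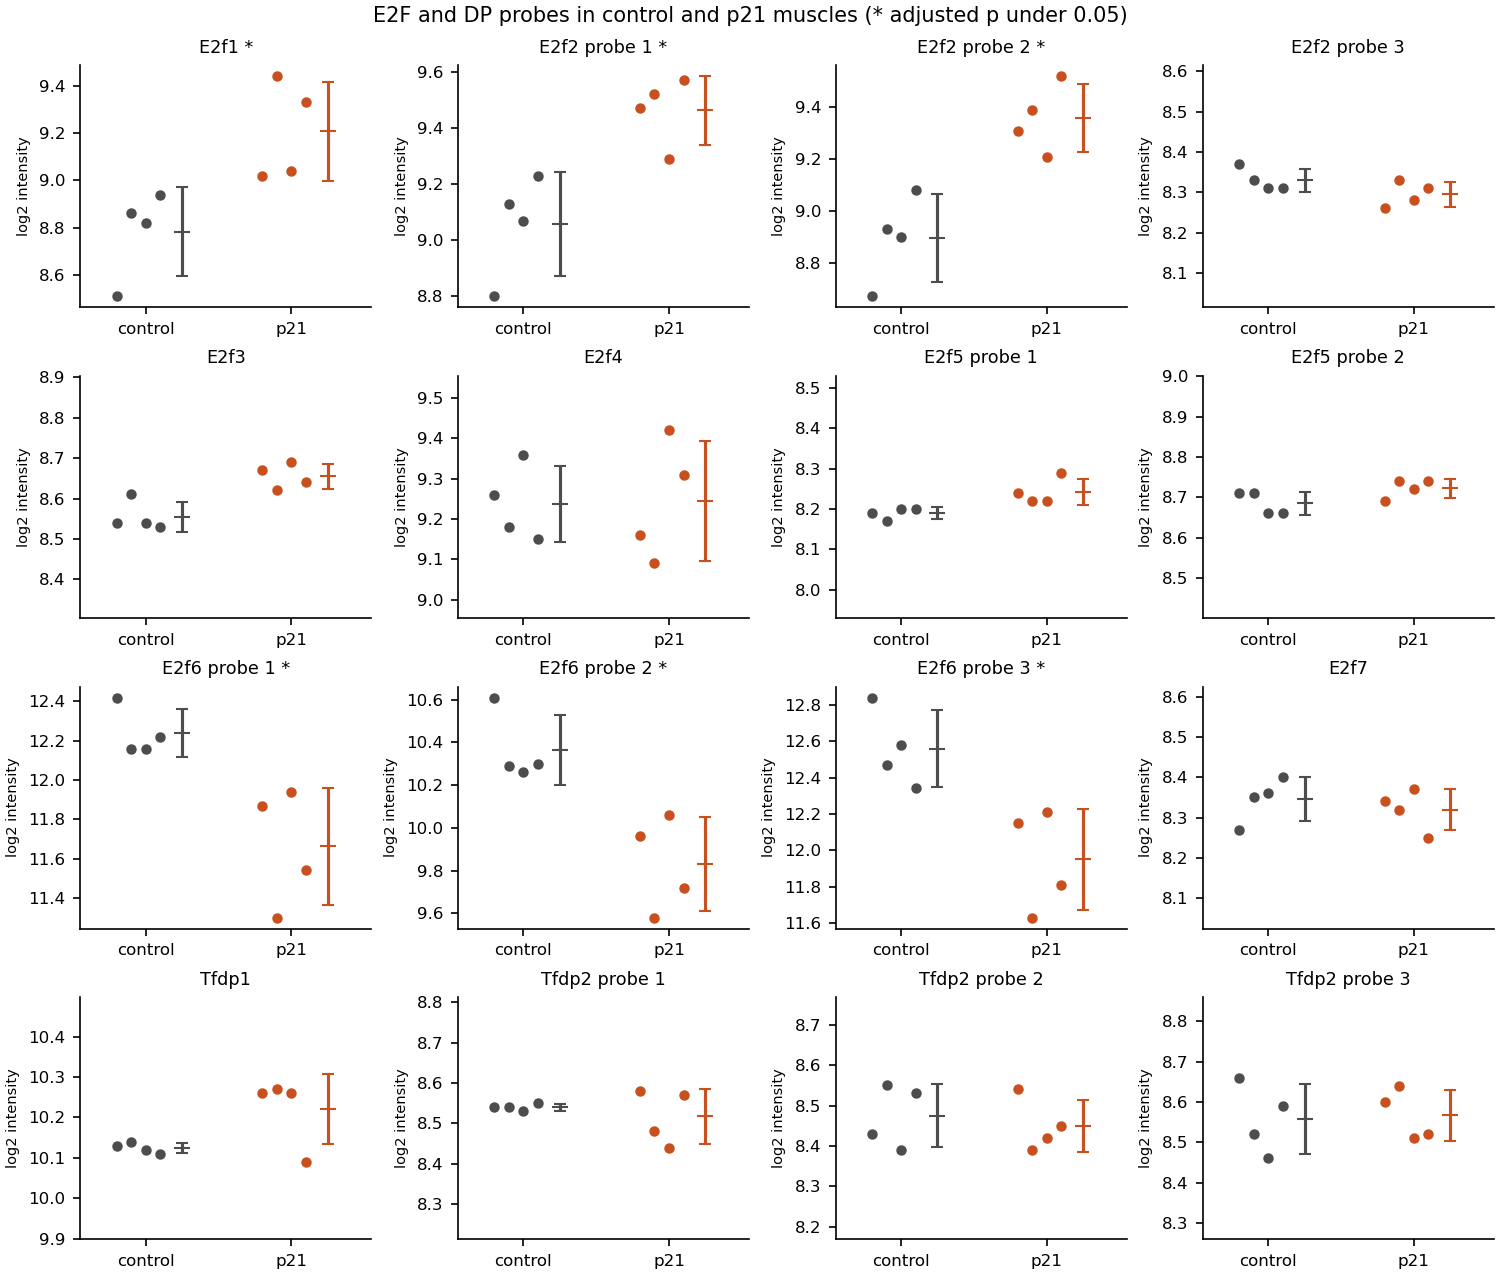
Log2 intensity (vertical axis, a separate range in each panel) of each of the 16 probes in the 4 control and 4 p21 muscles, with the group mean and SD as bars; an asterisk marks adjusted p under 0.05. The p21 points lie above all control points for E2f1 and for E2f2 probes 1 and 2, and below all control points for the 3 E2f6 probes.

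E2f1, which drives entry into S phase and can also promote apoptosis, is read by 1 probe. It stood at 8.51, 8.86, 8.82 and 8.94 in control replicates 1 to 4 and at 9.02, 9.44, 9.04 and 9.33 in p21 replicates 1 to 4. The groups did not overlap, with 0.08 between the highest control and the lowest p21 muscle. The change was 0.42 ± 0.11 (adjusted p = 0.0403 by limma, exact two-sided permutation p = 0.0286, the smallest that 4 against 4 allows). Its adjusted p rose to 0.0730 in limma without the intensity trend, and to between 0.0607 and 0.125 without control replicate 1, 2 or 3 or p21 replicate 2 or 4. On a scale from which the floor was subtracted, the change was 0.91, with adjusted p = 0.0459.

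E2f2, an activator close to E2f1 in sequence and function, has 3 probes, numbered here by probe identifier. Probe 1 read 8.80, 9.13, 9.07 and 9.23 in control replicates 1 to 4 and 9.47, 9.52, 9.29 and 9.57 in p21 replicates 1 to 4, a change of 0.41 ± 0.09 (adjusted p = 0.0259 by limma). Probe 2 read 8.67, 8.93, 8.90 and 9.08 in the controls and 9.31, 9.39, 9.21 and 9.52 in the p21 muscles, a change of 0.46 ± 0.09 (adjusted p = 0.0165). Neither probe showed an overlap of the groups, and in both control replicate 1 was lowest and p21 replicate 4 highest. Probe 3 lay between 8.26 and 8.37 in all 8 muscles, under the array median, and had a change of −0.03 ± 0.02 (adjusted p = 0.483). Its reading near the floor gives no measure of E2f2 in either direction. Probe 2 lost its call without p21 replicate 4 (adjusted p = 0.0626), and probe 1 without that muscle or control replicate 1, 2 or 3 (0.0557 to 0.0921). After subtraction of the floor the changes were 0.73 and 0.90. Averaging all 3 probes, an alternative added after the data were seen, gave 0.28.

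E2f3, the activator linked with proliferation in many cell types, read 8.54, 8.61, 8.54 and 8.53 in control replicates 1 to 4 and 8.67, 8.62, 8.69 and 8.64 in p21 replicates 1 to 4. Every p21 muscle lay above every control muscle, but by as little as 0.01 at the printed precision, and the change of 0.10 ± 0.04 missed the threshold (adjusted p = 0.150). Its 95% confidence interval ran from 0.01 to 0.19. After subtraction of the floor it was 0.32 (adjusted p = 0.135).

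E2f6, the repressor that acts with Polycomb proteins, fell in all 3 probes. Probe 3 read 12.84, 12.47, 12.58 and 12.34 in control replicates 1 to 4 and 12.15, 11.63, 12.21 and 11.81 in p21 replicates 1 to 4. Probe 1 read 12.42, 12.16, 12.16 and 12.22 in the controls and 11.87, 11.30, 11.94 and 11.54 in the p21 muscles. Probe 2 read 10.61, 10.29, 10.26 and 10.30 in the controls and 9.96, 9.58, 10.06 and 9.72 in the p21 muscles. In each probe control replicate 1 was the highest muscle and p21 replicate 2 the lowest, and the groups did not overlap. The gap between the lowest control and the highest p21 muscle was 0.13, 0.22 and 0.20 for probes 3, 1 and 2.

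The changes of E2f6 were −0.61 ± 0.14, −0.58 ± 0.14 and −0.53 ± 0.12 for probes 3, 1 and 2 (adjusted p = 0.0288, 0.0282 and 0.0231 by limma). The exact two-sided permutation p was 0.0286 for each of them, as it was for E2f2 probes 1 and 2. The 3 probes read 1 gene and are not separate evidence of a change in the muscles, but their changes differed by less than 1 standard error. All 3 kept their call without p21 replicate 1, 2 or 3, under the floor-subtracted scale (−0.64, −0.62 and −0.71) and without the trend (0.0494 at most). None passed when p21 replicate 4, control replicate 1 or control replicate 2 was left out, where adjusted p lay between 0.0584 and 0.0987. Calls over the whole table fell in the same fits, from 2064 to 159, 379 and 391 respectively. Probes 1 and 3 were also lost without control replicate 3, and probe 1 without control replicate 4 (0.0579). The size stayed between −0.69 and −0.45 with any 1 muscle left out.

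**Figure D2:**
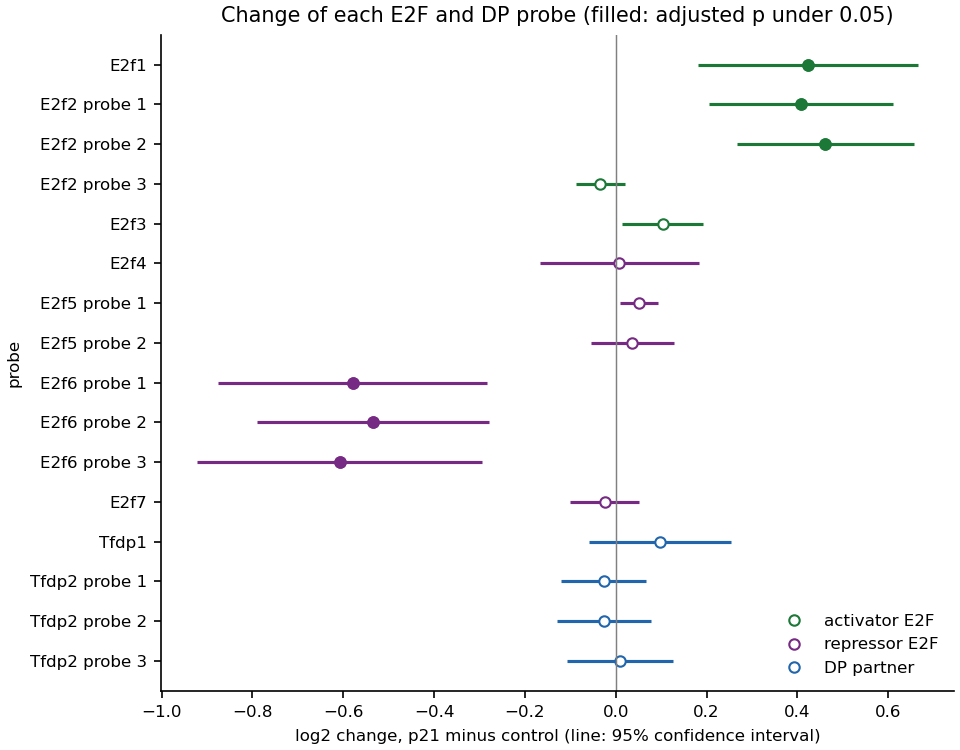
Change of each probe (horizontal axis, p21 minus control in log2 intensity) with its 95% confidence interval from limma, colored by role and filled where adjusted p is under 0.05. E2f1 and E2f2 probes 1 and 2 lie between 0.41 and 0.46, the E2f6 probes between −0.61 and −0.53, and the other 10 probes between −0.03 and 0.10.

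The other repressors did not pass the test. E2f4, which together with the pocket proteins p107 and p130 represses cell cycle genes in resting cells, read 9.26, 9.18, 9.36 and 9.15 in control replicates 1 to 4 and 9.16, 9.09, 9.42 and 9.31 in p21 replicates 1 to 4. The groups overlapped, with a change of 0.01 ± 0.08 (adjusted p = 0.975) and a 95% confidence interval from −0.17 to 0.18. E2f5, a relative of E2f4, has a probe at 8.66 to 8.74 with a change of 0.04 ± 0.04 and a probe at the floor, from 8.17 to 8.29, with 0.05 ± 0.02 (adjusted p = 0.682 and 0.121). The groups overlapped in the first and not in the second. After subtraction of the floor the E2f5 changes were 0.10 and 0.46 (adjusted p = 0.69 and 0.105 by limma). E2f7, an atypical repressor that is itself a target of E2F activators, lay between 8.25 and 8.40, around the array median and with overlapping groups, with a change of −0.02 ± 0.03 (adjusted p = 0.754). At such levels a change of E2f5 or E2f7 may not be detectable on these arrays. Of the 7 repressor probes 3 were called, all of E2f6.

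The DP partners did not pass either. Tfdp1, which encodes the widely expressed DP1, read 10.13, 10.14, 10.12 and 10.11 in control replicates 1 to 4 and 10.26, 10.27, 10.26 and 10.09 in p21 replicates 1 to 4. In 3 of the 4 p21 muscles it was above all controls and in p21 replicate 4 below all of them, so that the groups overlapped. The change was 0.10 ± 0.07 (adjusted p = 0.481), with a 95% confidence interval from −0.06 to 0.25, and it was 0.14 without p21 replicate 4 (adjusted p = 0.340). The 3 probes of Tfdp2 read 8.39 to 8.66 with changes of −0.03, −0.03 and 0.01 (adjusted p = 0.787 to 0.955). Of the 4 DP probes 0 were called by limma, and 0 had an unadjusted p under 0.05. Over all 16 member probes the median change was 0.0081, against −0.0036 over all probes, and 8 of the 16 had groups that did not overlap, against 16.7% of all probes.

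**Figure D3:**
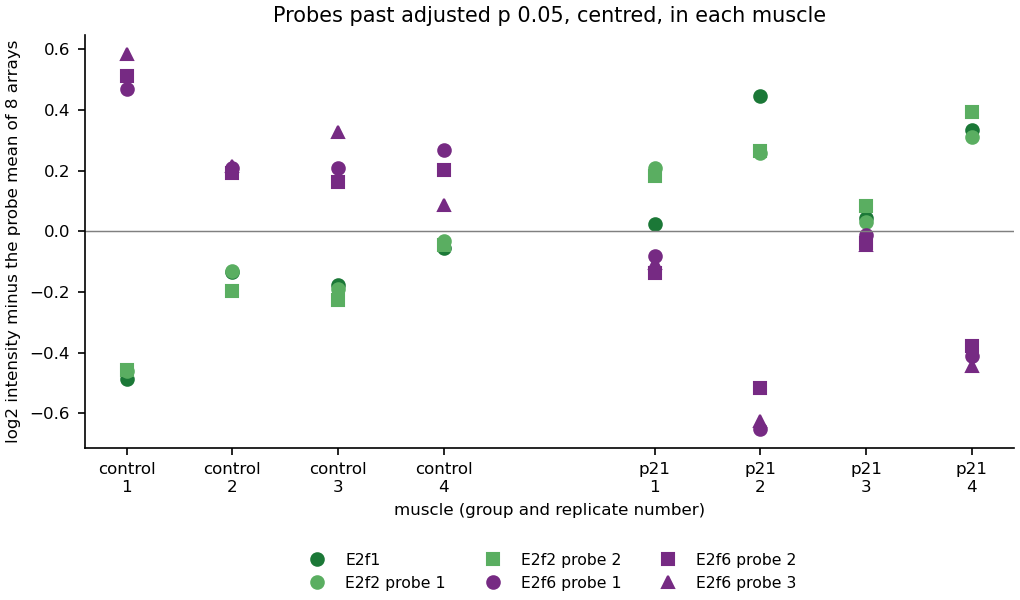
Log2 intensity of the 6 called probes in each muscle, minus the mean of the probe over the 8 arrays (vertical axis), by group and replicate number. E2f6 lies above 0 in every control and below 0 in every p21 muscle and E2f1 and E2f2 the reverse, with the widest spread in control replicate 1 and p21 replicates 2 and 4.

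The called members also differed between muscles of the same group. Control replicate 1 had the lowest E2f1 and E2f2 and the highest E2f6 of all 8 muscles. Among the other controls, replicate 4 had the highest E2f1 and E2f2, and also the highest E2f6 in probes 1 and 2. Among the p21 muscles, replicates 2 and 4 had the highest E2f1 and the lowest E2f6, and replicates 1 and 3 the reverse. Cdkn1a was likewise highest in p21 replicates 2 and 4 (11.72 and 11.50), and so was the mean of the macrophage markers given below (11.04 and 10.95). Among the controls Cdkn1a was lowest in replicate 1 (9.83), as E2f1 was. It was highest in control replicate 3 (10.27), where E2f1 was not. With 4 muscles in a group no correlation is given.

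Markers of other cells differed between the groups in the same muscles. Of 12 macrophage markers 10 were measured and 5 rose, namely C1qa, C1qb, C1qc, Ctss and Lyz2. Of all genes 4.24% rose and 4.79% fell. The other 5 markers were not called by their brightest probe, though 2 of 3 Adgre1 probes were called. Of the called Lyz2, 2 of 3 probes passed. Adgre1, Cd14, Mrc1 and Itgam changed by 0.85, 0.76, 0.39 and 0.09, and Cd163 went the other way (−0.17). The mean level of the 10 was 9.75 to 10.38 in controls and 10.63 to 11.04 in p21 muscles. It was lowest in control replicate 1 and highest in p21 replicate 2, the muscles at the extremes of E2f1. The cycling cell markers Top2a, a topoisomerase of dividing cells, and Birc5, which encodes survivin, were the 2 of 5 that were measured. Both rose. Their mean was lowest in control replicate 1, at 8.61, and was 9.11 to 9.51 in the p21 muscles, above every control. Neither was called when control replicate 1, control replicate 2 or p21 replicate 4 was left out. Of 6 endothelial markers 1 fell, Tek, all 6 had changes below 0, and 5 had an unadjusted p under 0.05. Of 6 fibroblast markers 1 rose, Col3a1, and 2 had an unadjusted p under 0.05. At least 13.6% of all probes had one, the share that passed an adjusted p of 0.1, and the full share was not counted. Of the 5 measured T cell markers 0 were called by limma and 2 had an unadjusted p under 0.05, and of the 3 satellite cell markers 0 were called and 2 had one. Of 6 muscle fiber markers 1 fell, Myh4, and of 2 measured erythroid markers 1 fell, Alas2. With the replicate number as a block, 12.4% of all probes were called in either direction. In that fit 7 macrophage, 2 fibroblast, 3 T cell, 1 satellite cell and 2 cycling cell markers rose. The markers that fell in it were 3 endothelial, 1 muscle fiber and 1 erythroid. Mean levels in controls and p21 muscles were 9.42 to 9.70 and 9.30 to 9.42 for the endothelial list, 10.99 to 11.55 and 11.41 to 12.13 for the fibroblast list, and 8.48 to 8.74 and 8.66 to 9.03 for the T cell list. No listed Schwann cell marker was matched. The part of these cells in the changes of E2f1, E2f2 and E2f6 was not tested.

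Genes known as E2F targets rose in part. Of 34 listed targets 30 were measured, and 8 rose and none fell, against 4.24% of all genes that rose. Their median change was 0.06, with the other 22 between −0.20 and 0.46. At an unadjusted p under 0.05 there were 13 targets, of which Rrm1 (−0.15) and Ung (−0.20), picked after their values were seen, lay lower. At least 13.6% of all probes reached that p. Mcm5 and Mcm6, which encode parts of the helicase that unwinds DNA for replication, rose by 0.61 ± 0.09 and 0.41 ± 0.07 (adjusted p = 0.00796 and 0.0133 by limma). Mcm5 stood at 9.17 ± 0.14 in the controls and at 9.79 ± 0.16 in the p21 muscles (SD, n = 4), with no overlap. Cdt1, which loads that helicase, went from 8.65 ± 0.08 to 9.10 ± 0.17 (SD, n = 4), a rise of 0.45 ± 0.08 (adjusted p = 0.0124).

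Uhrf1, which helps maintain DNA methylation, rose by 0.45 ± 0.08, Tyms, the thymidylate synthase, by 0.33 ± 0.07 and Ezh2, the Polycomb methyltransferase, by 0.16 ± 0.04 (adjusted p = 0.0134, 0.0231 and 0.0403 by limma). These are the values of each gene's brightest probe, and not every probe passed. In Mcm6 3 of 4 probes were called, in Uhrf1 1 of 2, in Ezh2 1 of 3 and in Tyms 1 of 5. Rrm2, picked after its values were seen, was not called by its brightest probe but had 1 of 2 probes called. The number of targets called was 4 without control replicate 1 or 3, 5 without control replicate 2 or 4, and 1, Mcm5, without p21 replicate 4. On the floor-subtracted scale the median of the targets was 0.21. The macrophage and cycling cell markers rose in the same muscles, with medians of 0.71 and 0.50, and their part was not tested.

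**Figure D4:**
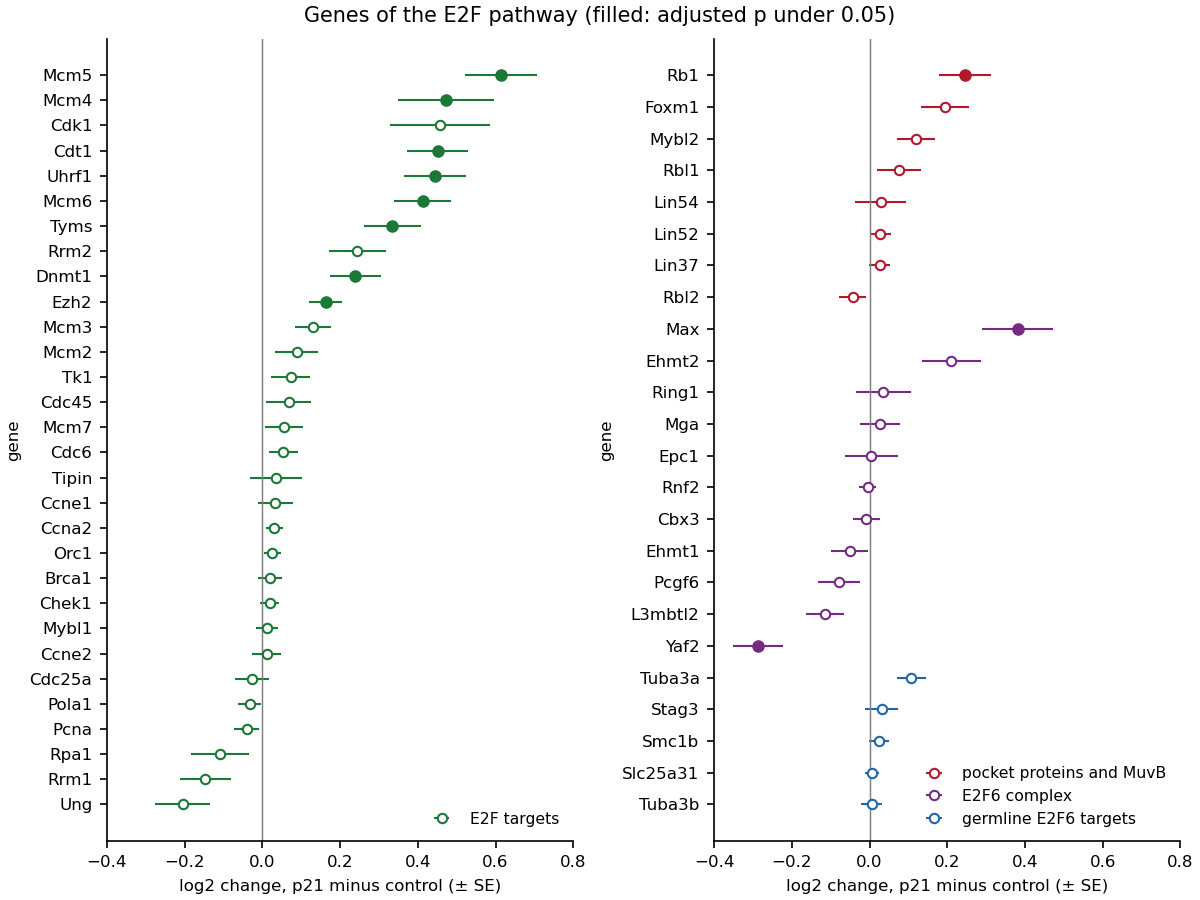
Change of each listed gene (horizontal axis, p21 minus control in log2 intensity of its brightest probe, ± SE), for E2F targets on the left and for pocket protein and MuvB genes, E2F6 complex genes and germline targets of E2F6 on the right; filled symbols mark adjusted p under 0.05. Of 30 targets 8 are filled, from Ezh2 at 0.16 to Mcm5 at 0.61, and on the right Rb1, Max and Yaf2 are filled.

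Genes of the pocket proteins and of the MuvB complex, which joins them in repression, were mostly not called. Of 10 listed, 8 were measured, 1 rose and none fell, against 4.24% of all genes that rose, with a median of 0.05. Rb1, which encodes the retinoblastoma protein, read 9.57, 9.41, 9.48 and 9.57 in control replicates 1 to 4 and 9.73, 9.77, 9.68 and 9.82 in p21 replicates 1 to 4. The groups did not overlap, and the rise of 0.25 ± 0.07 (adjusted p = 0.0454 by limma) held for both Rb1 probes. That call of the brightest probe was lost when any 1 muscle was left out and on the floor-subtracted scale. With the replicate number as a block Foxm1, picked after its value was seen, passed as well (adjusted p = 0.0323).

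Partners of E2F6 mostly did not pass the test. Of 12 listed genes of its complexes 11 were measured, 1 rose, 1 fell and 9 were not called, against 9.02% of all genes called, with a median of −0.0045. Max, which pairs with the complex member MGA, rose by 0.38 ± 0.09 (adjusted p = 0.0304 by limma), from 10.24 to 10.51 in controls to 10.60 to 10.87 in p21 muscles. Yaf2, a Polycomb subunit, fell by 0.29 on the log2 scale (SE 0.06, adjusted p = 0.0247), from 8.92 to 9.15 in controls to 8.63 to 8.82 in p21 muscles. In Max 1 of 2 probes was called. Leaving out p21 replicate 4, control replicate 1 or control replicate 2 removed both calls, and leaving out control replicate 4 removed that of Max.

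Germline genes that E2F6 is known to silence in the mouse did not pass the test. All 5 listed, Stag3, Smc1b, Slc25a31, Tuba3a and Tuba3b, were measured, and their changes lay between 0.01 and 0.11. Of these, 3 read below the array median in all 8 muscles, so that their readings are at the floor. By limma 0 were called and 1, Tuba3a, picked after its value was seen, had an unadjusted p under 0.05 (0.0134). An unadjusted p under 0.05 was reached by at least 13.6% of all probes.

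Upstream of the pocket proteins, 5 of 10 measured cyclin, kinase and inhibitor genes rose and none fell, of 11 listed. Of all genes 4.24% rose. The median change of the list was 0.27, and both the count and the median include Cdkn1a, the transfected gene. Besides Cdkn1a the called genes were Cdkn1c, which encodes the related inhibitor p57 (1.26 ± 0.25), and Ccnd3, a D-type cyclin (0.58 ± 0.12). The kinase genes Cdk2 (0.47 ± 0.10) and Cdk6 (0.09 ± 0.02) were called as well. These are again the brightest probes, and 1 of 3 Ccnd3 probes and 1 of 4 Cdk2 probes were called. Cdk6 lay between 8.20 and 8.33 in all muscles, at the floor. The number called was 1, Cdkn1a, when control replicate 1 or p21 replicate 4 was left out and 2 when control replicate 2 was. On the floor-subtracted scale the median was 0.56.

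The genes nearest to the called members in their centred values over the 8 muscles were found by the root mean square difference in log2 intensity, among 11920 to 11922 probes brighter than the median probe. Since the group difference and the order of muscles within a group are part of these values, likeness includes both. Nearest to E2f1 were Mpp1 (0.04), Myo9b (0.04) and Arhgap17 (0.05). Nearest to E2f2 probe 2 were Cib1 (0.05), Evi2a (0.05) and Crlf3 (0.06). Nearest to E2f6 probe 2 were Fbxo3 (0.04), Ppm1a (0.04) and Rab12 (0.05). Fbxo3 read 11.37, 11.15, 11.04 and 11.08 in control replicates 1 to 4 and 10.70, 10.37, 10.79 and 10.54 in p21 replicates 1 to 4. Its order of p21 muscles is that of E2f6, which its choice by likeness favors and which is no separate finding.

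**Figure D5:**
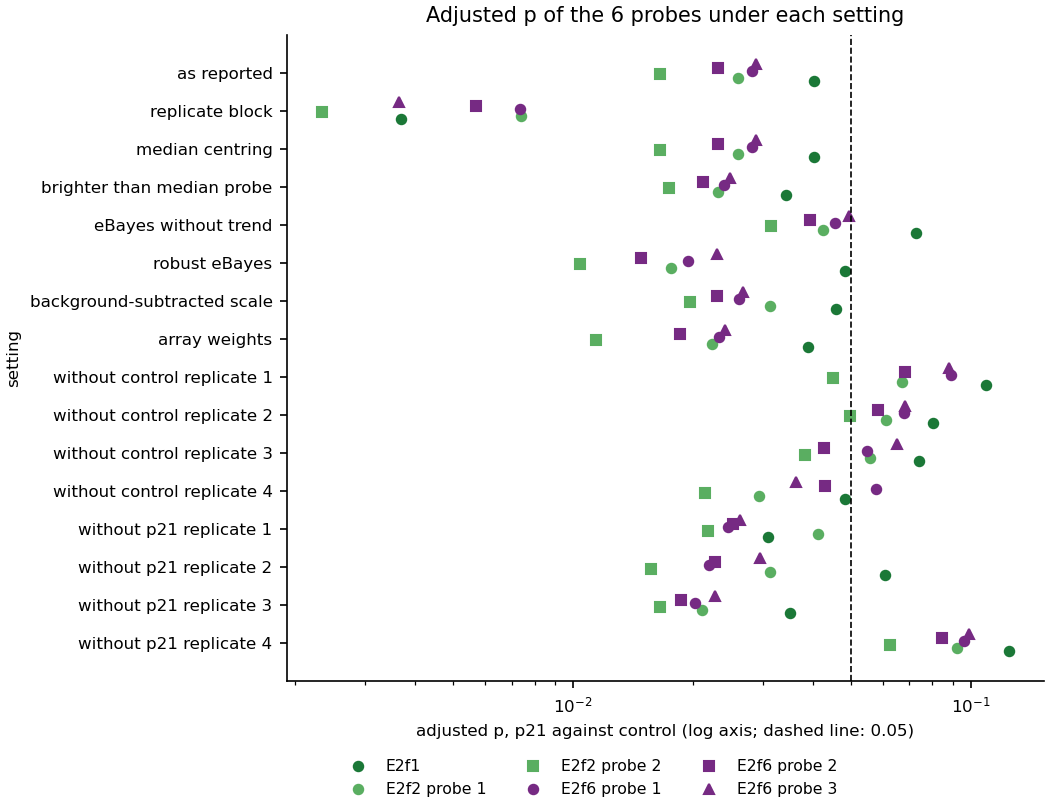
Adjusted p of the 6 called probes (horizontal axis, log scale; dashed line at 0.05) as reported, under 7 alternatives and with each muscle left out in turn. Without p21 replicate 4 all 6 lie above 0.05, between 0.0626 and 0.125, and with the replicate number as a block all 6 lie between 0.00233 and 0.0074.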

How the data were processed

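The authors deposited log2 intensities of 25697 Illumina probes for 8 arrays, in a table for which the sources used here name no software, background correction or normalization. After sorting, no value differed between arrays by more than 0.00073, which is what quantile normalization leaves and which removes any difference in total RNA between arrays. Groups and replicate numbers came from the sample titles. Gene names came from the platform annotation, with 23978 probes of 1 symbol, 0 of several and 1719 unnamed here. No build is named for the probes, and only the RefSeq start windows carry coordinates.

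Group means were fitted by limma 3.58.1 under R 4.3.3 (lmFit, eBayes with an intensity trend), two-sided and without filtering, and Benjamini-Hochberg adjusted p-values of the whole table were read at 0.05. Single probes were also tested by an exact permutation test over the 70 regroupings, unadjusted. On simulated data of 25697 probes, 80% of 100 probes changed by 0.5 and 97% of 100 changed by 1 were recovered, with 7 false calls among 184. Changed probes were drawn from those brighter than the median probe. The simulated noise was independent between probes and arrays, whereas deviations of the real arrays were correlated, so these shares may not hold for the real data. The number of arrays limits the precision. Each listed gene is read from its brightest probe over the 8 arrays. A listed gene with no value was not matched under the symbol used.

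The floor-subtracted scale is the linear intensity minus the lowest value plus an offset of 16, in log2. The other alternatives were the replicate block, median centring, brighter probes, eBayes without the trend or robust, array weights, the average of all probes of a gene, and the omission of each array in turn.

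The members and gene lists were chosen with earlier results of these data known. Every member probe and every Cdkn1a probe is reported. In each pathway list all called genes are named where 6 or fewer were called, otherwise the 6 of smallest p, and the 3 nearest genes of each called member are named. Cell type markers that were called, and all measured macrophage markers, are also named, outside that rule. Where another gene is named, its choice after its values is stated.

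Replicate numbers run from 1 to 4 in both groups, with no meaning stated in the labels. Array deviations from their group's mean correlated at 0.483, 0.264, 0.212 and 0.181 between arrays of the same number. All were over 0.1, so the numbers were read as pairs, on the strength of the data alone. Higher values than within their own numbers were found between control 3 and p21 4 (0.448) and between control 4 and p21 2 (0.297). That leaves the pairing in doubt. The pairs enter only the fit with the replicate block, and the adjusted p-values of all other fits leave them out.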

Additional observations from a re-analysis of the deposited data

Results flagged for a closer look

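Within each group of 4 muscles, 90 groups of values of the reported probes were searched for a muscle that stood apart (its gap to the nearest muscle, over the group's range, above Dixon's critical value), which chance alone gives in about 5% of groups. It was found in 7. Among the members, E2f6 probe 2 read 10.61 in control replicate 1, above 10.26 to 10.30 in the other controls, and the call of that probe was lost without this muscle. E2f3 read 8.61 in control replicate 2 against 8.53 to 8.54 in the others. Tfdp1 read 10.09 in p21 replicate 4 against 10.26 to 10.27. Among other reported genes, Mcm4 read 9.69 in control replicate 1 against 10.04 to 10.09, and Uhrf1 read 8.63 there against 8.88 to 8.93. Cdk2 read 9.67 in control replicate 4 against 9.50 to 9.51, and Col3a1, a collagen gene of the fibroblast markers, read 11.18 in p21 replicate 2 against 10.33 to 10.45.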

How the results depend on the processing

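The 6 called member probes kept their direction under every alternative run, and all 6 kept their call under the replicate block, median centring, brighter probes, robust eBayes, the floor-subtracted scale and array weights. Without the trend 5 were called, E2f1 being lost. With a muscle left out, 0 to 6 member probes were called, 0 to 3 of the activators and 0 to 3 of the repressors. At a threshold of adjusted p 0.1, added after the data were seen, 6 were called. Over the whole table, 2064 probes were called as reported, 3186 with the replicate block and 159 to 2162 with a muscle left out. The lowest counts were 159 without p21 replicate 4, 379 without control replicate 1 and 391 without control replicate 2. The block changed no call of a member. For the lists, leaving out a muscle gave 1 to 7 called E2F targets, 0 to 1 pocket protein and MuvB genes, 0 to 2 E2F6 complex genes and 1 to 5 upstream genes, with 0 DP probes and 0 germline genes under all of these. The pocket protein and MuvB count was 2 with the block, 2 over brighter probes and 0 on the floor-subtracted scale. Members near 0 changed sign with a muscle left out. E2f4 ranged from −0.0511 to 0.0588, and the Tfdp2 probes from −0.0465 to 0.0001, from −0.0557 to 0.0002 and from −0.0256 to 0.044. The mean of the Tfdp2 probes was −0.0144. The cause of these differences was not tested. Of the member probes, 2 read below the array median in every muscle, which limits what can be seen of them.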

Other observations

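The E2F consensus letters, searched in the start windows as for the members, were present in 14 of the 26 listed E2F target genes that have a window, against 2.6% of all genes with one. They were present in 6 of the 7 targets that rose and have a window, and in 7 of the 18 measured targets that were not called. The list was drawn up from genes known as E2F targets, so its share of matches is no independent finding, and the split by call was made after the values were seen and was not tested. Of the other lists, 2 of 7 pocket protein and MuvB genes, 1 of 9 E2F6 complex genes, 1 of 5 germline targets and 1 of 8 upstream genes with a window held a match.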
